A study of Mus musculus with 14 samples.

Results

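The ribosomal protein pseudogenes described here are the genes of the deposited expression table whose symbol starts with Rpl or Rps and contains "-ps". The rule takes 214 of the 31507 genes in the table, 131 named for proteins of the large ribosomal subunit (Rpl) and 83 for proteins of the small subunit (Rps, including Rpsa). Their symbols lead back to 55 parent genes, the intact genes from which the copies are named, and 15 of these parents have a single pseudogene in the table. Members were taken by symbol alone, but the set was picked on input FPKM in these same libraries, because levels of some members jumped between the groups. Its leading members are Rps12-ps4 and Rpl10-ps3. Group differences of pseudogenes are therefore given as values, without a test. Tests are given for the parent genes and for lists of other genes of translation.

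Mouse brain tissue was profiled by m6A sequencing, in which fragments of poly(A) RNA that carry N6-methyladenosine are enriched with an antibody (IP) and sequenced beside unselected fragments (input). The 14 libraries form 3 groups: sham operation (3 input, 3 IP), intracerebral haemorrhage made with autologous blood (ICH; 2 input, 2 IP), and haemorrhage treated by acupuncture at the GV20 point for 7 consecutive days (2 input, 2 IP). The labels give no strain, sex or age, and leave it unsaid whether replicates came from different animals. P-values therefore measure only the spread between these samples, which may be technical. Expression was deposited as FPKM, fragments scaled to transcript length and library size, for the 7 input libraries, so read depth is unknown.

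A processed pseudogene is a copy of an mRNA that was reverse transcribed and inserted elsewhere in the genome. It usually lacks introns and most often the promoter of its parent, and ribosomal protein genes, whose mRNAs are abundant in every cell type, have left many such copies in mammalian genomes. Because a young copy differs from the spliced mRNA of its parent at few positions, a short read can fit both. Reads of every gene below may thus be shared between the pseudogene, its parent and sister copies. The sources used here do not say how reads with several possible places were treated, so transcription of a pseudogene and reads assigned to it from its parent cannot be told apart.

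The copies lay on 20 chromosomes and were short, with a median span of 482.5 bp (151 to 19206 bp). A span of at most 1000 bp was found for 206 of them, and 207 had 1 annotated transcript. RefSeq (GRCm38.p6) held 212 of the 214 by symbol, 202 as pseudogenes, 7 as transcribed pseudogenes, 2 as protein-coding genes and 1 as a long non-coding RNA, and 211 of these had a start or end within 1000 bp of the deposited one. Another gene overlapped 74 of the pseudogenes, on the same strand for 28. Families differed in size: Rpl31 had 16 copies, Rpl21 13, Rpl19 and Rps12 10 each, and Rps2, Rps19 and Rpsa 9 each.

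Most copies gave little or no signal. The level needed for the fit across genes, a mean of 1 FPKM or more in the input libraries, was reached by 94 of the 214, a further 110 lay below it, and 10 were listed at 0 in every library. The lowest mean inside this limit was 1.08 FPKM and the highest outside it 0.938. Of the 94, 35 had a mean of at least 10 FPKM. The median of the 94 was 6.49 FPKM, beside 54.4 FPKM for the 55 parents.

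A few copies were listed at higher levels than the gene they are named for. This held for 14 pseudogenes, and in 12 of 55 families the copies summed to more FPKM than the parent. Rpl21-ps15 had the highest mean, 137.7 FPKM, against 28.6 for Rpl21, a protein of the large subunit; its libraries read 133, 119 and 139 FPKM in sham, 152 and 77.7 in ICH and 179 and 165 in acupuncture. In the Rpl17 family 4 copies exceeded the parent, and all 8 together gave 10.8 times the FPKM of Rpl17. The corresponding ratios were 5.36 for Rpl21, 5.35 for Rps12, 3.43 for Rpl35a and 2.56 for Rps27a. All 214 copies together made up 0.746 to 1.08% of the FPKM total of a library. That share was lowest in ICH replicate 2 and highest in acupuncture replicate 1, as was the sum over the parents (3401 and 5565 FPKM).

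Libraries of one group were not equally alike. ICH replicate 2 had the highest summed level of 4 neuron markers (782 FPKM, against 441 to 551 elsewhere). Acupuncture replicate 2 had 1.64 FPKM over 4 choroid plexus markers, against 333 to 483 in the other libraries. Markers of neutrophils, S100a8, S100a9 and Ngp, summed to 7.46 to 10.2 FPKM in sham, 14.5 to 15.3 in ICH and 47.2 to 74.7 in acupuncture; S100a8 and S100a9 were highest in acupuncture, Ngp was not, and none was at 0. The oligodendrocyte markers Mbp and Mog were lower in both acupuncture libraries than in any sham library. Mbp had 335.2 to 420.2 FPKM in sham, 240.7 to 281.3 in ICH and 162.4 to 264.8 in acupuncture, and Mog had 38.9 to 52.5, 33.4 to 37.1 and 25.3 to 36.2 FPKM. All 3 endothelial markers, Cldn5, Pecam1 and Cdh5, were higher in both acupuncture libraries than in any sham library, with sums of 19.2 to 26.2, 28.7 to 38.9 and 56.4 to 58.8 FPKM. Microglial markers (Cx3cr1, P2ry12 and Tmem119) summed to 25.0 to 28.8 FPKM in sham, 50.9 to 54.1 in ICH and 37.6 to 45.7 in acupuncture. Cx3cr1 and Tmem119 were higher in every ICH and acupuncture library than in any sham library. P2ry12 was instead lower in acupuncture, at 6.99 and 5.55 FPKM in replicates 1 and 2, against 11.97 to 12.93 in sham. In ICH replicates 1 and 2 P2ry12 had 12.3 and 22.1 FPKM. The part of these differences in the values below was not tested, and in bulk tissue fewer cells of a type and less RNA per cell cannot be told apart.

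Rps12-ps4 (ENSMUSG00000109509; chr7:30484701-30485097, minus strand) carried the largest jump. It lies inside Nphs1, the gene of the kidney slit-diaphragm protein nephrin, on the opposite strand. Its level was 24.1, 15.2 and 17.5 FPKM in the sham libraries, 2.09 and 1.17 in ICH replicates 1 and 2, and 50.3 and 44.9 in acupuncture replicates 1 and 2. Both ICH libraries lay below every sham library and both acupuncture libraries above, so that none of the 3 groups overlapped. On the log2(FPKM + 1) scale, the scale of every log2 difference of expression below, ICH was -2.92 from sham and acupuncture was 4.23 from ICH and 1.31 from sham. Leaving out any 1 library kept the ICH difference between -3.18 and -2.67 and the acupuncture against ICH difference between 3.98 and 4.49. The copy was picked for its jump in these same libraries, so these ranges describe the values and do not test the jump.

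The parent, Rps12 (ENSMUSG00000061983; chr10:23785183-23787275), encodes a protein of the small subunit and did not share that pattern. Its levels were 23.5, 18.3 and 20.3 FPKM in the sham libraries, 26.2 and 35.0 in ICH replicates 1 and 2, and 36.1 and 30.1 in acupuncture replicates 1 and 2. They were higher in both ICH libraries than in any sham library, the opposite direction to the pseudogene. As a share of the FPKM of the pair, Rps12-ps4 went from 45.3 to 50.7% in sham to 7.4 and 3.2% in ICH and 58.3 and 59.9% in acupuncture. Summed with the parent, the pair differed by -0.29 between ICH and sham, by 1.30 between acupuncture and ICH and by 1.02 between acupuncture and sham. The low level in ICH was thus hardly seen in the pair as a whole, and the difference with acupuncture was smaller in the pair than in the copy.

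Other members of the Rps12 family behaved differently from Rps12-ps4. Rps12-ps3, at a mean of 89.6 FPKM the most abundant copy of this parent, had 51.2, 83.5 and 73.3 FPKM in sham, 115 and 67.3 in ICH and 112 and 125 in acupuncture. Rps12-ps9 had 20.5, 28.5 and 25.0 FPKM in sham, 36.8 and 20.1 in ICH and 56.3 and 39.1 in acupuncture. Neither was low in both ICH libraries. The remaining 7 copies had means of at most 0.233 FPKM. Nphs1, on the other strand, was near the floor, with 0.733, 0.139 and 0.554 FPKM in the sham libraries, 0.179 and 0.130 in ICH replicates 1 and 2, and 1.12 and 1.11 in acupuncture replicates 1 and 2; it was lowest in ICH 2 and highest in both acupuncture libraries.

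**Figure D1:**
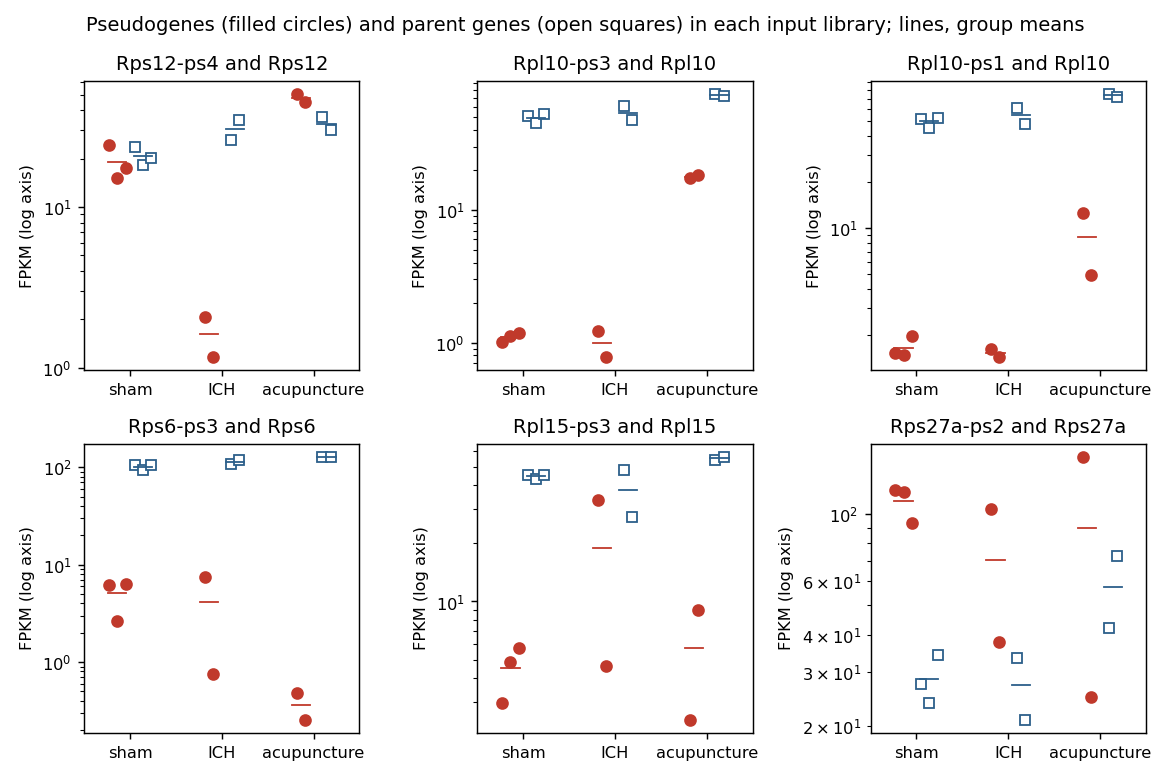
FPKM (log axis) of 6 pseudogenes (filled circles) and their parents (open squares) in each input library of sham (n = 3), ICH (n = 2) and acupuncture (n = 2), with group means as lines. Rps12-ps4 lies at 1.17 and 2.09 FPKM in ICH and Rpl10-ps3 at 17.3 and 18.4 FPKM in acupuncture, while Rps12 stays between 18.3 and 36.1 and Rpl10 between 45.1 and 74.7; in the lower row, libraries of one group can lie far apart.

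Rpl10-ps3 (ENSMUSG00000058443; chr9:50344201-50344968, minus strand; no other gene overlaps it) was high in the acupuncture group. It read 1.01, 1.12 and 1.18 FPKM in the sham libraries, 1.22 and 0.778 in ICH replicates 1 and 2, and 17.3 and 18.4 in acupuncture replicates 1 and 2. Sham and ICH overlapped near 1 FPKM, and both acupuncture libraries stood far above them, at a log2 difference of 3.25 from ICH and 3.16 from sham. Its parent Rpl10 (ENSMUSG00000008682; chrX:74270812-74273135), a large-subunit protein needed for the subunits to join, had 51.3, 45.1 and 52.6 FPKM in the sham libraries, 60.7 and 47.9 in ICH replicates 1 and 2, and 74.7 and 71.9 in acupuncture replicates 1 and 2. The pseudogene thus made up 1.6 to 2.4% of the FPKM of the pair in sham and ICH and 18.8 and 20.4% in acupuncture. Summed with the parent, the acupuncture difference was 0.72 from ICH and 0.83 from sham.

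A second copy of the same parent was high in the same libraries. Rpl10-ps1 (chr2:105554201-105554845, minus strand, inside Pax6os1 on the same strand) had 1.54, 1.48 and 1.97 FPKM in sham, 1.63 and 1.45 in ICH and 12.7 and 4.92 in acupuncture. Its log2 difference was 1.82 from ICH and 1.76 from sham, although the 2 acupuncture libraries differed by more than 2-fold from each other. Pax6os1, a non-coding gene, was listed at 0 to 0.164 FPKM in the same libraries. The other copies differed little or otherwise: Rpl10-ps5 had 10.3, 8.50 and 10.1 FPKM in sham, 11.4 and 8.90 in ICH and 12.4 and 11.5 in acupuncture, Rpl10-ps2 reached at most 3.05 FPKM, and Rpl10-ps6, inside the gene of the insulin-degrading enzyme Ide on the same strand, had 38.7, 37.7 and 37.7 FPKM in sham, 44.2 and 72.9 in ICH and 31.1 and 40.7 in acupuncture, highest in ICH replicate 2. Large differences with acupuncture were therefore listed for 2 of the 5 Rpl10 copies and not for the most abundant one.

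A level at least 2-fold lower with acupuncture was listed for 2 copies against ICH and 2 against sham (0.571 and 0.9% of all genes tested). Against ICH they were Rps6-ps3 and Rpl15-ps3 (-1.25), and against sham Rps6-ps3 and Rps26-ps1 (-1.06). Rps6-ps3 (chr9:53689534-53690283, minus strand, inside Rab39 on the same strand) is named for Rps6, the small-subunit protein phosphorylated by S6 kinases. It had 6.25, 2.65 and 6.34 FPKM in the sham libraries, 7.49 and 0.755 in ICH replicates 1 and 2, and 0.477 and 0.255 in acupuncture replicates 1 and 2. Both acupuncture libraries lay below all others, at a log2 difference of -2.09 from sham and -1.50 from ICH, but ICH replicate 2 was close to them at 0.755 FPKM. Rab39, a small GTPase gene, stayed between 0.191 and 0.565 FPKM, and Rps6 went from a mean of 101 ± 6.13 FPKM (SD, n = 3) in the sham group to 128 ± 0.719 in acupuncture (SD, n = 2), so the sum of the pair was 0.27 higher in acupuncture than in sham. Rps2-ps10 (named for the small-subunit protein Rps2) fell short of 2-fold, at a log2 difference of -0.99 from ICH and -0.71 from sham. It had 3.31, 4.23 and 2.13 FPKM in sham, 4.69 and 3.44 in ICH and 1.56 and 1.50 in acupuncture. Both acupuncture libraries lay below all others for this copy too.

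Several other large differences rested on 1 library. Rpl15-ps3 had the largest positive difference between ICH and sham, 1.37, from values of 2.97, 4.84 and 5.73 FPKM in sham, 33.4 and 4.63 in ICH and 2.44 and 8.99 in acupuncture; without ICH replicate 1 its acupuncture against ICH difference went from -1.25 to 0.06. Rpl28-ps3 had 4.29, 4.77 and 4.10 FPKM in sham, 4.62 and 29.3 in ICH and 8.79 and 6.64 in acupuncture, and Rpsa-ps9 had 3.44, 5.32 and 4.86 FPKM in sham, 5.45 and 16.3 in ICH and 8.71 and 6.37 in acupuncture, each high in ICH replicate 2 alone. Rpl19-ps6 was likewise highest there, at 6.10 FPKM against 1.37 to 2.26 in the other libraries, and so was Gm27529, which overlaps it on the same strand (11.2 FPKM against 1.69 to 3.53). Without that library the acupuncture against ICH difference of Rpl19-ps6 went from -0.61 to 0.06.

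Rps27a-ps2, a copy of the gene for a small-subunit protein fused to ubiquitin, was the second most abundant member. It had 120.3, 118 and 93.7 FPKM in sham, 103 and 37.7 in ICH and 154 and 24.9 in acupuncture. The 2 acupuncture libraries were its highest and its lowest, and the group difference from sham, -0.81, became 0.49 when acupuncture replicate 2 was left out. Rps27a itself was highest in that library, with 27.4, 23.8 and 34.3 FPKM in sham, 33.5 and 20.9 in ICH and 42.1 and 72.9 in acupuncture. The copy's share of the pair was 64.3 to 83.2% in 6 libraries and 25.5% in acupuncture replicate 2, and the summed pair differed from sham by less than 0.01.

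Copies of 1 parent could move apart. Rpl35a-ps2 had 26.5, 49.1 and 44.2 FPKM in sham, 38.0 and 7.03 in ICH and 59.8 and 7.94 in acupuncture, low in the second library of both haemorrhage groups; without acupuncture replicate 2 its difference from sham went from -0.76 to 0.62. Rpl35a-ps3 had 22.1, 2.43 and 21.2 FPKM in sham, 32.1 and 5.62 in ICH and 29.5 and 56.8 in acupuncture. Sham replicate 2, at 2.43 FPKM, stood apart there, and acupuncture was 1.80 above sham and 1.50 above ICH. The parent Rpl35a, of the large subunit, had 26.2, 25.5 and 28.9 FPKM in sham, 29.9 and 12.5 in ICH and 38.1 and 35.6 in acupuncture. ICH replicate 2 was the lowest library for the parent, and neither copy had its lowest and highest libraries where the other did.

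Both leading copies of Rps13, a small-subunit protein, shared an odd sham library instead. Rps13-ps1 had 12.3, 1.99 and 2.49 FPKM in sham, 6.62 and 3.60 in ICH and 15.5 and 11.0 in acupuncture, and Rps13-ps2 had 12.2, 2.22 and 2.88 FPKM in sham, 28.7 and 4.53 in ICH and 18.2 and 13.4 in acupuncture. Sham replicate 1 was the highest sham library in both by several-fold, and Rps13-ps2 was highest of all in ICH replicate 1. Their acupuncture differences from sham, 1.44 and 1.60, included sham replicate 1, which overlapped the acupuncture range for Rps13-ps1 and lay just below it for Rps13-ps2. Rps13 ranged only from 23.8 to 28.6 FPKM in sham.

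Other copies varied within their groups to different degrees. Rpl27a-ps4 had 0.673, 1.63 and 1.91 FPKM in sham, 3.39 and 3.82 in ICH and 4.90 and 5.51 in acupuncture, in an order of sham, ICH and acupuncture with no overlap; ICH was 0.98 above sham. Rpl30-ps9 had 6.54, 6.39 and 7.84 FPKM in sham, 4.61 and 1.67 in ICH and 10.01 and 8.94 in acupuncture, where both ICH libraries were the lowest and acupuncture was 1.44 above ICH. Rpl9-ps6 had 60.6, 31.7 and 50.3 FPKM in sham, 33.6 and 10.5 in ICH and 58.9 and 36.7 in acupuncture, a difference of -1.23 between ICH and sham with overlapping groups. Rps26-ps1 had 16.3, 8.87 and 4.46 FPKM in sham, 2.46 and 6.40 in ICH and 5.58 and 2.34 in acupuncture, and its sham values alone spanned more than 3-fold. Its parent Rps26 had 149.4 FPKM in ICH replicate 2 against 40.3 to 73.1 elsewhere.

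Over the 94 copies that passed the level filter, the median log2 difference was 0.14 for ICH against sham, 0.27 for acupuncture against ICH and 0.39 for acupuncture against sham. The same medians were -0.05, 0.50 and 0.50 for the 55 parents and -0.01, 0.05 and 0.04 for all 13666 genes tested. The 3 comparisons share libraries and are not independent. A difference of at least 2-fold was listed for 3 copies upward and 4 downward in ICH against sham (3.1 and 0.571% of all genes tested), 8 and 2 in acupuncture against ICH (0.944 and 0.571%), and 8 and 2 in acupuncture against sham (4.42 and 0.9%). These counts use the contrasts by which the set was picked and are given as a description.

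Set beside their own parents, the copies differed in the same direction in 51 of 94 pairs for ICH against sham, 61 for acupuncture against ICH and 80 for acupuncture against sham. A copy higher in ICH than in sham with a lower parent was seen in 30 pairs, and the reverse in 13. In acupuncture against ICH, 30 copies were lower with a higher parent and 3 the reverse, and against sham 14 and 0. Few pairs kept a large difference when copy and parent were summed. At least a 2-fold difference was listed for 7, 10 and 10 copies in the 3 comparisons, and for 0, 4 and 1 of the 94 sums. Most parents had far more FPKM than their copies (medians of 54.4 and 6.49), so a sum shrinks most copy differences by arithmetic. The part of shared reads in this was not tested.

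**Figure D2:**
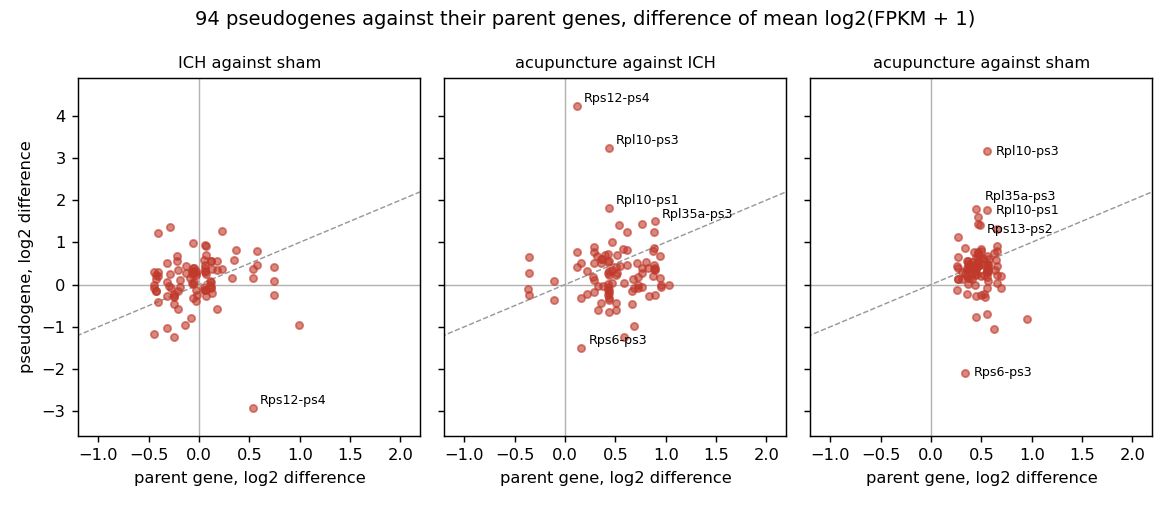
Each point is 1 of 94 pseudogenes, with its parent's difference of mean log2(FPKM + 1) on the x axis and its own on the y axis, for the 3 comparisons; the dashed line marks equal differences. Parents differ by at most 1.04, and the named pseudogenes, with differences of at least 1.5, stand away from the line, led by Rps12-ps4 at -2.92 and 4.23 and Rpl10-ps3 at 3.25 and 3.16.

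Copies varied more between libraries of one group than other genes did. ICH replicates 1 and 2 differed by at least 2-fold in 27 of 94 copies, 28.7%, against 5 of 55 parents and 4.05% of all genes tested. The acupuncture libraries did so in 7 copies, 7.45%, against 0 parents and 1.39% of genes. The 3 pairs of sham libraries did so in 9, 7 and 5 copies, against 0 parents and 0.871, 0.607 and 0.915% of genes. The median absolute log2 difference between ICH libraries was 0.64 for copies, 0.53 for parents and 0.27 for all genes; between acupuncture libraries it was 0.30, 0.12 and 0.13. By this median parents exceeded all genes between the ICH libraries and in no other pair, while copies exceeded all genes in every pair. The part of low level and short length in this spread was not tested.

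The widest gaps within a group fell on a few families. Rpl17-ps9, named here after its values were seen, had 2.59, 6.33 and 3.83 FPKM in sham, 19.4 and 0.719 in ICH and 32.0 and 2.63 in acupuncture, a log2 gap of 3.57 between the ICH libraries and 3.18 between the acupuncture libraries. Copies of Rpl35a, Rps13, Rps27a and Rpl15 accounted for most of the other gaps above 2. For the leading members the spread within groups was as follows. Rpl10-ps3 had 1.11 ± 0.0862 FPKM in sham (SD, n = 3), 1.001 ± 0.315 in ICH (SD, n = 2) and 17.9 ± 0.784 in acupuncture (SD, n = 2). For Rps12-ps4 the values were 18.9 ± 4.66, 1.63 ± 0.649 and 47.6 ± 3.83.

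**Figure D3:**
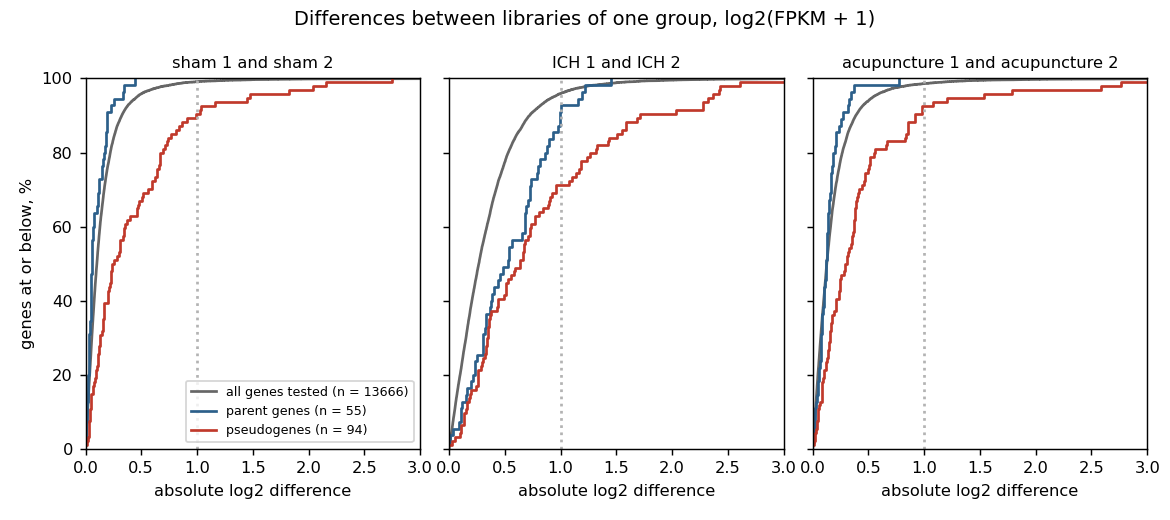
Cumulative share of genes (y axis, %) by absolute difference in log2(FPKM + 1) between 2 libraries of one group (x axis, drawn to 3), for 94 pseudogenes, 55 parents and 13666 genes tested; the dotted line marks 2-fold. The pseudogene curve lies to the right of the other curves in all 3 panels, and 28.7% of pseudogenes lie beyond 2-fold between the ICH libraries.

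Of the 55 parent genes, 18 rose in acupuncture against sham and 0 fell (limma, adjusted p under 0.05), beside 8.47 and 3.22% of all genes tested (11.7% in either direction). Rplp0, the central protein of the ribosomal stalk, rose by 0.995 (SE 0.10, adjusted p = 0.00107). Its mean was 67.6 ± 2.00 FPKM in sham (SD, n = 3) and 135.7 ± 5.82 in acupuncture (SD, n = 2). Rps4x, the X-linked small-subunit protein, rose by 0.84 (SE 0.10, adjusted p = 0.00242) and Rpl10a, of the large subunit, by 0.63 (SE 0.10, adjusted p = 0.00763). Rpl10 rose by 0.55 (adjusted p = 0.0396) and Rps12 by 0.65 (adjusted p = 0.0497). These were smaller steps than those of Rpl10-ps3 (3.16) and Rps12-ps4 (1.31), which were picked for their jumps. Rpl10-ps1 (1.76), Rps12-ps3 (0.79) and Rps12-ps9 (0.91) also differed more than their parents. Rpl10-ps2, Rpl10-ps5 and Rpl10-ps6 differed less than Rpl10, by 0.17, 0.29 and -0.09. The oligodendrocyte, endothelial and neutrophil markers above differed between the same groups, and their part in this was not tested. Both acupuncture libraries lay above all sham libraries for 53 of 55 parents, beside 31.8% of all genes, and for 45 of 94 copies. The count of 18 depended on the ICH libraries, which share the estimate of spread: without either of them 51 parents passed, and without any 1 sham or acupuncture library 2 to 4 did.

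Few parents were called in ICH against sham. Rplp0 (0.60, SE 0.10, adjusted p = 0.0152) and Rps4x (0.45, SE 0.10, adjusted p = 0.0472) rose against sham and 0 fell, beside 4.95 and 0.724% of all genes (5.68% in either direction). Leaving out any 1 sham library left 0 calls, and leaving out either acupuncture library left 1. Leaving out ICH replicate 1 left 33, of which 12 were higher and 21 lower. Acupuncture against ICH gave 0 calls by limma (0.0366% of all genes), while 40 of 55 parents had an unadjusted p under 0.05. The closest was Rpl7a, of the large subunit (0.52, SE 0.11, adjusted p = 0.179). Without ICH replicate 1, 47 parents passed, 43 higher and 4 lower. Rps12 differed by 0.12 and Rpl10 by 0.44 between acupuncture and ICH (adjusted p = 0.704 and 0.21). The picked copies Rps12-ps4 and Rpl10-ps3 differed by 4.23 and 3.25 there. Their sister copies above the level filter ranged from -0.66 (Rpl10-ps6) to 1.82 (Rpl10-ps1).

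Of 36 other genes with a ribosomal protein symbol and no "-ps" copy in the table, 32 were tested. The list was taken by symbol and also holds related genes such as Rps27rt, Rpl37rt, Rps23rg1 and Rps19bp1. Against sham, 11 rose with acupuncture and 0 fell by limma, beside 8.47 and 3.22% of all genes tested. The smallest p-values were those of Rps27l (0.94, adjusted p = 0.00345), Rps20 (0.60, adjusted p = 0.00803) and Rpl35 (0.61, adjusted p = 0.00941). In the other comparisons 0 passed (4 at an unadjusted p under 0.05 for ICH against sham and 24 for acupuncture against ICH). Of 13 genes in a list of translation factors and associated proteins, 4 rose with acupuncture against sham and 0 fell, beside the same shares. The 4 were Btf3, Eif3f, Tpt1 and Eif3e. In the other 2 comparisons 0 passed, with 3 and 2 at an unadjusted p under 0.05. Of 20 ribosome biogenesis genes, 0 passed in any comparison, with 3, 1 and 0 at an unadjusted p under 0.05. These lists were not compared with each other by a test.

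Genes whose level followed the leading copies across the 7 input libraries included no other ribosomal protein pseudogene by symbol. The 5 with the highest Pearson correlation to Rps12-ps4 were P3h3, a collagen prolyl hydroxylase (r = 0.974), Fam53a (0.973), Micos10, of the mitochondrial inner membrane (0.968), Atxn7l2 (0.968) and Gm25117 (0.966). P3h3 itself varied only between 3.33 and 5.52 FPKM. For Rpl10-ps3 the highest were Gm14150 (0.992), Gm10073 (0.989), Mpdu1 (0.985) and Vamp3, a vesicle fusion protein (0.982). Gm14150 had 0.765, 0.487 and 0.674 FPKM in the sham libraries, 0.836 and 0.265 in ICH replicates 1 and 2, and 8.83 and 7.15 in acupuncture replicates 1 and 2. These are the highest of 13666 correlations over libraries that share their groups, and are a description.

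The authors' m6A peak lists, made per group from IP over input, named pseudogenes of the set as well. The sham list had 47 peaks on 45 copies, of 48251 peaks in all. ICH had 51 peaks on 50 copies (of 54754), and acupuncture 50 on 46 (of 50105). Among the 94 copies with a mean of at least 1 FPKM, 40, 44 and 39 had a peak (42.6, 46.8 and 41.5%), less than the share of all genes tested at that level (93.6, 94.4 and 94.1%). A further 5, 6 and 7 copies below that level had one. All but 1 of the 55 parents had a peak in sham, the exception being Rpl17, and all 55 in the other lists. Depth was not given, so a copy without a peak may have had too few reads.

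Across the 3 lists, 65 of the 214 copies carried a peak, 30 of them in all 3 lists, 16 in 2 and 19 in 1 (6 only in sham, 7 only in ICH and 6 only in acupuncture). Each of the 65 had a parent with a peak in some list, as had all 55 parents, so enrichment could be shared in the same way as input reads. Median log2 IP over input of the peaks on copies was 1.37, 1.56 and 1.20 in sham, ICH and acupuncture, against 1.07, 1.24 and 1.12 over all peaks and 1.14, 1.52 and 1.08 on parents. Most of the peaks were annotated by the authors as exons of non-coding RNA (44, 47 and 46).

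Peaks lay towards the 3′ side of the copies. They reached the 3′ end of the copy in 25 of 47, 30 of 51 and 29 of 50 cases and its 5′ end in 8, 8 and 5. The peak centre lay nearer the 3′ than the 5′ end in 34, 37 and 38 peaks. The median centre was at 69.4, 57.5 and 62.6% of the way from the 5′ end, against 76.2, 70.2 and 73.0% along the genomic span of the parents, whose introns make the scales differ. In mRNAs m6A is known to gather near the stop codon, and a copy keeps the order of its parent's mRNA.

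**Figure D4:**
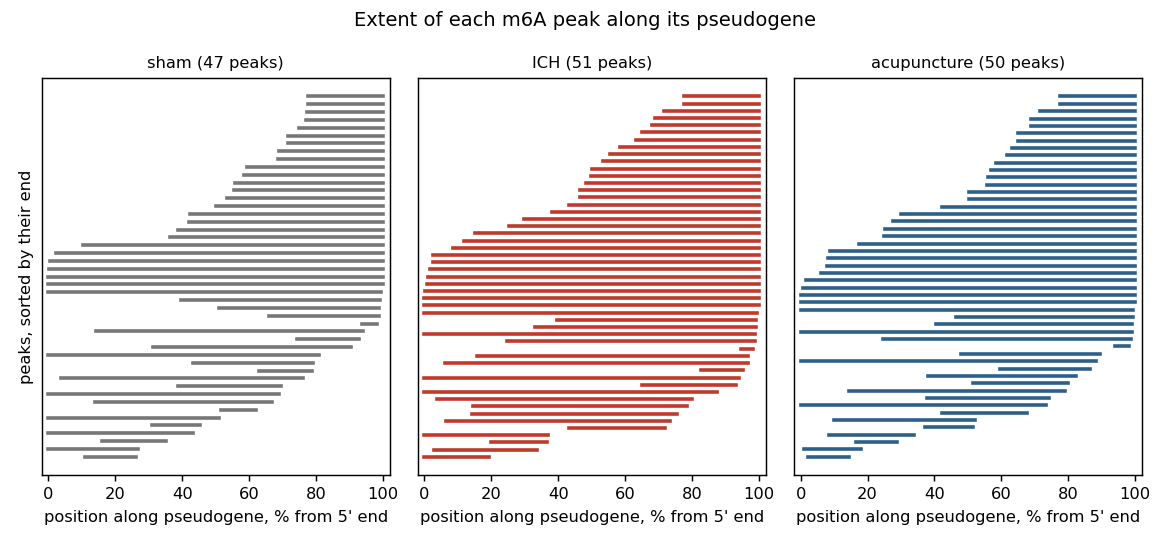
Each line is 1 m6A peak drawn along its pseudogene from the 5′ end (0%) to the 3′ end (100%), sorted by peak end, for the sham, ICH and acupuncture lists. Of 47, 51 and 50 peaks, 25, 30 and 29 run to the 3′ end.

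Rps12-ps4 had a peak in sham (log2 IP over input 0.85; chr7:30484701-30484800) and in ICH (2.04; chr7:30484751-30485097), and none in acupuncture, where its input level was highest. In the authors' deposited table of differential peaks, its ratio was 2.00 in ICH and 0.60 in sham, a difference of 1.40 upward where the input level was 2.92 lower. Input is the denominator of the ratio, so this measure is not independent of the FPKM. Rpl10-ps3 had no peak in any list. Rpl10-ps1 appeared only in the authors' deposited differential table of acupuncture against sham, with 0.84 against -0.92 and an authors' adjusted p of 0.102.

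The highest ratios were listed for copies with low input, but not every such copy had one. Rpl5-ps2 (0.445 FPKM) had 1.15 in ICH alone, and Rpl21-ps10 (0.840 FPKM) had 1.13 in acupuncture alone. Rpl29-ps2, named for a heparin-binding protein of the large subunit, had the highest values, 5.30 in sham, 4.30 in ICH and 4.16 in acupuncture, at a mean of 0.560 FPKM. Its peaks spanned 5099 to 5199 bp, nearly the whole copy, which has 3 annotated transcripts. Rpl27-ps1 (0.281 FPKM) had 4.34 and 4.28 in sham and ICH and none in acupuncture, and Rpl13-ps3 (0.110 FPKM) had 4.00 in ICH alone. Among abundant copies the values were lower: Rpl17-ps10 (90.7 FPKM) had 0.91, 1.34 and 0.91, and Rpl38-ps2 (44.9 FPKM) had 1.37, 2.18 and 1.66. Rps13-ps2 (11.7 FPKM) reached 3.22 in sham. Rpl21-ps15, the most abundant copy, had no peak.

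A pair of Rps18 copies on opposite strands of chromosome 13 shared their peaks. Rps18-ps6 (chr13:97760072-97760632, minus strand) lies within the last part of Rps18-ps4 (chr13:97751112-97760965, plus strand). Rps18-ps4 had a mean of 0.0256 FPKM and was at 0 in 3 libraries, yet its peaks in sham, ICH and acupuncture had ratios of 1.60, 1.56 and 2.59. The peaks of Rps18-ps6, at 1.92 FPKM, covered overlapping intervals with ratios of 1.61, 1.34 and 2.80. Enrichment on one strand and on the other cannot be told apart here. Both copies were higher in acupuncture than in ICH in the authors' deposited differential table (2.58 against 1.50 for Rps18-ps4, 2.78 against 1.29 for Rps18-ps6), where most copies were lower. The authors' adjusted p was 0.0693 for Rps18-ps4 and 0.0135 for Rps18-ps6.

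Sequences around the start are shown for 2 copies because a processed copy most often lacks the promoter of its parent. Ribosomal protein genes often begin transcription in a run of C and T known as the 5′ terminal oligopyrimidine tract. The promoter table (RefSeq, GRCm38.p6) held 2 of the 214 copies, Rps18-ps4 and Rpl31-ps12, and 50 of the 55 parents. Each line gives 30 bases, 15 before and 15 from the annotated start, with an unbroken run of C and T from the start base in capitals.
Rps18 (chr17:33955651-33955680, minus strand): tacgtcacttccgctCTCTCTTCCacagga
Rps18-ps4 (chr13:97751097-97751126, plus strand): tgtctgcacacacatgtgcagtcctccaca
Rpl31 (chr1:39367836-39367865, plus strand): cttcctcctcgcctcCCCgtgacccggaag
Rpl31-ps12 (chr16:16820182-16820211, minus strand): catggaaaacaacacaaaaatcaacaacat
The run was 9 bases in Rps18, 3 in Rpl31 and 0 in both copies. The annotated start of Rps18-ps4 lies at the far end of its long span from its peaks and from Rps18-ps6. Its window need not be the start of the part copied from Rps18. A run of at least 5 bases was found in 12 of 50 parents (24.0%), 0 of 2 copies and 4.44% of 32851 promoters of the same length. Rps12 and Rpl10 had none at their annotated start, so these letters depend on which start the annotation gives, and a run is a description of the window.

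For the 30 copies with a peak in all 3 lists, the highest ratio per copy had a median of 1.33 in sham, 1.81 in ICH and 1.71 in acupuncture. ICH was above sham in 22 of 30 copies (74.9% of the 15903 genes with a peak in all lists), acupuncture was below ICH in 20 (77.2%) and above sham in 20 (56.9%). The same counts for parents were 50 of 54 and 51 of 54 for the first 2. The counts of copies were near those shares. Rpl31-ps8 (0.63, 2.30 and 1.26), Rpsa-ps2 (0.75, 1.94 and 1.12) and Rps7-ps3 (0.67, 1.76 and 0.99) followed the common order, and Rpl21-ps11 (2.91, 1.95 and 2.05) and Rpl35a-ps6 (1.96, 1.61 and 0.99) had their highest value in sham.

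**Figure D5:**
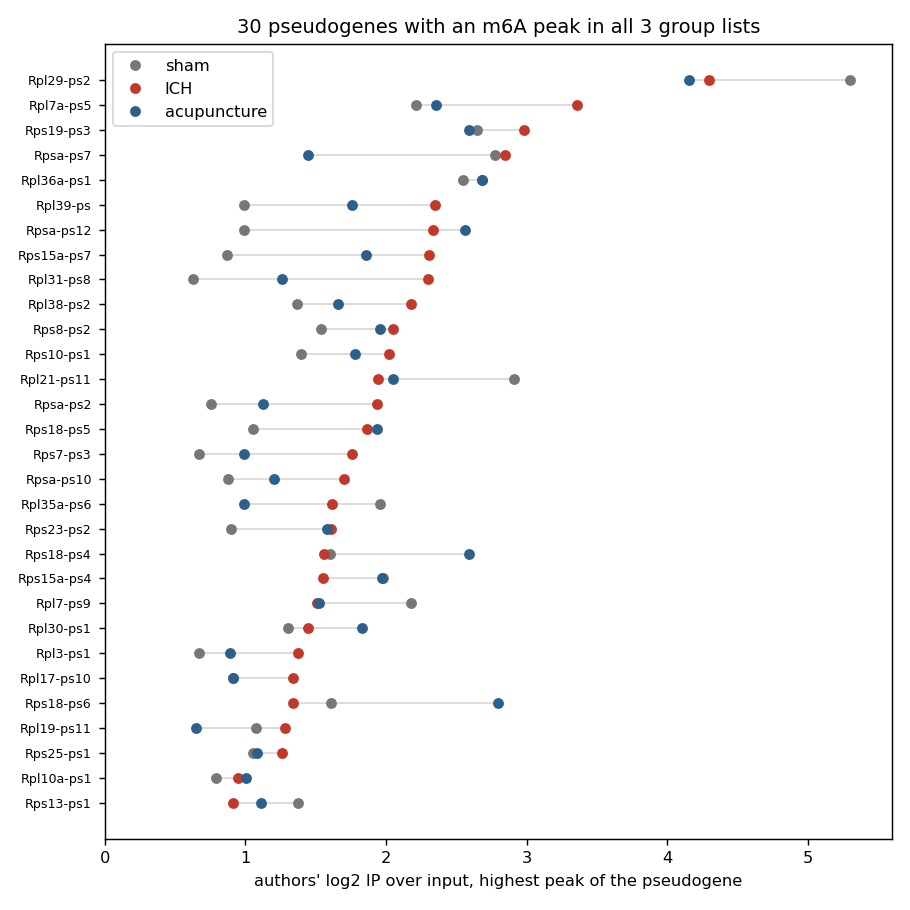
The authors' log2 IP over input of the highest peak (x axis) for each of the 30 pseudogenes with a peak in the sham, ICH and acupuncture lists, sorted by the ICH value. ICH lies above sham in 22 of the 30, and Rpl29-ps2 is highest at 5.30, 4.30 and 4.16.

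The authors' deposited differential tables listed 29 peaks on 28 copies for ICH against sham, 22 higher and 7 lower in ICH (78.7 and 21.3% of all listed peaks). For acupuncture against ICH there were 25 peaks on 23 copies, 4 higher and 21 lower in acupuncture (18.7 and 81.3%). For acupuncture against sham there were 30 on 29, 17 higher and 13 lower (58.2 and 41.8%). Peaks on parents split more unevenly, 100 and 2, 2 and 90, and 61 and 5. As listed, at an unadjusted p under 0.05, the split on copies was close to that of all peaks in each table. Some listed peaks had an authors' adjusted p above 0.05, most of them in acupuncture against sham. Examples there are Rpl10-ps1 (0.102) and Rpsa-ps2 (0.146), both higher in acupuncture. Among the copies' peaks with an adjusted p under 0.05 in that comparison, somewhat more were lower than higher in acupuncture. The split of all peaks at that cut was not counted, so this cannot be read as a trait of the copies.

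Copies with large differences in these tables could have the opposite difference in input. Rpl35a-ps2 had a ratio of 2.23 in ICH and -0.20 in sham, with an input difference of -1.16, and 0.83 in acupuncture. Rpl9-ps6 had 2.18 in ICH and 0.23 in sham, with an input difference of -1.23, and Rpl34-ps1 had 1.88 and 0.24, with an input difference of -0.95. Rps13-ps2 had 1.14 in acupuncture and 3.21 in sham, with input 1.60 higher. Rpl17-ps5 was an exception, with 2.02 in ICH and -0.67 in sham and input 0.28 higher. Over the copies with an input difference from the fit, the 2 directions were opposite for 18 of 27 peaks in ICH against sham (62.5% of all peaks of tested genes), 21 of 23 in acupuncture against ICH (61.4%) and 11 of 27 in acupuncture against sham (51.8%).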

How the data were processed

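The authors deposited FPKM per gene for the input libraries, and the column headings name the unit, per the file headers. The authors' peak lists hold 1 log2 IP over input per peak and group, and their differential tables hold that log2 ratio in each of 2 groups, with the authors' p-value and adjusted p-value; the authors listed peaks with a p-value under 0.05. Per the submitters' processing notes, edgeR, fastp, HISAT2, HOMER and StringTie were used, in roles and versions left unsaid. The notes also name a human genome build, whereas the files hold mouse Ensembl identifiers. Coordinates are those of the files and matched RefSeq on GRCm38.p6; peak starts, counted from 0 in the files, were raised by 1. Columns headed control and EA were matched to the sham and acupuncture samples by number and elimination, and 2 columns that match no sample were not used. Whether those samples entered the peak lists is unknown here.

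Genes that averaged 1 FPKM or more in the 7 libraries were fitted on log2(FPKM + 1), a pseudocount of 1, with 3 groups in 1 model in limma 3.58.1 (R 4.3.3) with a mean-variance trend. Calls used a two-sided Benjamini-Hochberg adjusted p under 0.05 over all 13666 genes. A log2 difference understates the change of low genes. Named pseudogenes are the 2 leading members, the 5 highest and 5 lowest differences per comparison, members with a peak, and their parents; lists give the genes with the smallest p. Of the genes most like each leading member, 1 is not reported here, nor is 1 cell type marker. The members and the lists were chosen with earlier results of these data known. Replicate numbers did not pair the libraries (correlations of deviations between libraries with the same number were -0.0149 to 0.0941), so the fit has no block. Simulated data held 100 changed genes per size among 13666. For ICH against sham the fit recovered 63% (log2 size 1) and 94% (log2 size 2). It recovered 67 and 96% for acupuncture against ICH and 65 and 93% for acupuncture against sham, with 9 false calls in each comparison. The simulated noise had 1 SD per gene shared by the 3 groups, whereas the ICH libraries lay further apart than those of the other groups. These shares therefore do not give the recovery in the data themselves, where acupuncture against ICH gave 5 calls over all genes. The rest used Python 3.11.15, pandas 2.3.3, numpy 2.4.6 and matplotlib 3.10.9. Alternatives changed the pseudocount, filter, scaling, trend, block, groups in the fit, peak rule and libraries, and summed each copy with its parent.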

Additional observations from a re-analysis of the deposited data

How the results depend on the processing

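The parents called in ICH against sham, 2 as reported, became 1 with no filter on low values, 1 with a filter at a mean of 5 FPKM, 1 in a fit of only these groups and 0 with the replicate number as a block, and ranged from 0 to 33 when 1 library was left out. The 0 calls of acupuncture against ICH ranged from 0 to 47 when 1 library was left out and were 0 under the other alternatives, the block included. The 18 of acupuncture against sham became 8 with no filter, 11 with FPKM scaled to a common total per library, 2 with the replicate block and 51 in a fit of only these groups, and ranged from 2 to 51 when 1 library was left out; all were higher in acupuncture. The replicate numbers do not pair the libraries. The median log2 difference of the copies was lower with no filter, 0.0363 in place of 0.27 for acupuncture against ICH and 0.13 in place of 0.39 for acupuncture against sham, as copies near 0 FPKM enter. Copies with a peak numbered 30, 45 and 34 at a log2 ratio of at least 1, and 57, 62 and 59 by overlap on the same strand, beside 45, 50 and 46 as listed. Of 586 values of 39 single-gene differences under the alternatives, 12 changed sign, all of pseudogenes: 8 when summed with the parent and 4 when 1 library was left out. A sum follows the parent where the parent has the higher FPKM, and the part of shared reads in these sign changes was not tested. FPKM holds no counts, so the depth behind each value, and the precision it gives, is unknown, and 2 libraries per haemorrhage group limit every comparison.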
